A study of Mus musculus with 2 samples.

Results

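The proteasome genes on the array were taken as the genes whose name is Psm, a letter from a to g and a number. They comprised 47 of the 37074 gene names and 90 of the 56605 probes. Agilent mouse expression arrays measured total RNA from the olfactory bulb, where the sensory axons of the nose end in the brain. The control array holds RNA of 1 mouse kept under standard odor perception conditions, and the other array RNA of 1 mouse kept under odor enriched conditions. The sources used here do not give the odor, its duration or the strain, age and sex of the mice. With 1 array per group there was no spread between mice and no test, so each difference is a description of these 2 arrays, and their number limits the precision.

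The proteasome is the barrel-shaped protease that degrades proteins tagged with ubiquitin. Its 20S core has outer rings of alpha subunits and inner rings of beta subunits, of which Psmb5, Psmb6 and Psmb7 cut peptide bonds, and the 19S particle on its ends recognizes, unfolds and feeds in the substrate. Interferon gamma induces replacements for these catalytic subunits (Psmb8 for Psmb5, Psmb9 for Psmb6 and Psmb10 for Psmb7), which form the immunoproteasome, and the activator PA28, made of Psme1 and Psme2, which docks on the core. The immunoproteasome is known for making peptides that the transporter Tap1 and Tap2 carries to major histocompatibility complex (MHC) class I molecules. In the brain, neurons rely mainly on the constitutive core, and microglia and infiltrating immune cells are known sources of the inducible subunits.

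The inducible group held 4 genes (Psmb8, Psmb9, Psmb10 and Psme1), since no probe was named Psme2, and the other 43 members were set against it. All 47 genes had at least 1 probe well above background on both arrays, and 84 of the 90 probes did. No spot of a member was saturated or flagged as an outlier. Values are log2 processed signals relative to the 75th percentile of each array, a gene is the mean of its measured probes, and a difference is odor enriched minus control. The errors that could be computed describe spots and probes within these arrays, and none of them measures the spread between mice. The scanner software's error model gave a member probe's difference an error of 0.20 at the median and 0.32 at most. The pooled SD between repeat spots of a probe was 0.05 (300 probes). Between different probes of a member gene it was 0.34 (25 genes, none of them inducible), and over all genes with several probes 0.63 (8234 genes).

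Each array held 62976 spots, and 73.7% of the non-control spots on the control array and 67.6% on the odor enriched array were well above background. A total of 23872 genes were well above background on each array by at least 1 probe. Of these, 11.5% were 2-fold or more higher on the odor enriched array, 5.52% were 2-fold or more lower and 17.0% passed 2-fold in either direction. Centring the arrays on their E1A spike-in probes instead shifted the median difference of all genes by -1.76, and the deposited series matrix values shifted it by 0.33. Differences below are therefore relative to the rest of each array.

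The inducible catalytic subunits had the highest differences of the whole family, and 42 of the 43 other members lay within 2-fold. Psmb9 was higher on the odor enriched array by 3.18 log2 units, Psmb8 by 2.40 and Psmb10 by 1.22, the last turning to -0.54 where the arrays were centred on E1A. The median of the 4 inducible members was 1.81 and that of the other 43 members -0.08, a gap of 1.88 log2 units. Of the inducible group 3 of 4 genes were at least 2-fold higher, where 11.5% of all measured genes were, and none was 2-fold lower; with E1A centring 1 of 4 was higher and 1 lower. Of the other members 0 of 43 were at least 2-fold higher and 1 was at least 2-fold lower (Psmb11), where 5.52% of all genes were. At 1.5-fold the inducible group still had 3 of 4 genes higher, where 21.2% of all genes were. Of the other members 1 was 1.5-fold higher (Psme3) and 3 were lower (Psmb11, Psmc5 and Psmd9), where 16.3% of all genes were lower and 37.5% passed in either direction.

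**Figure D1:**
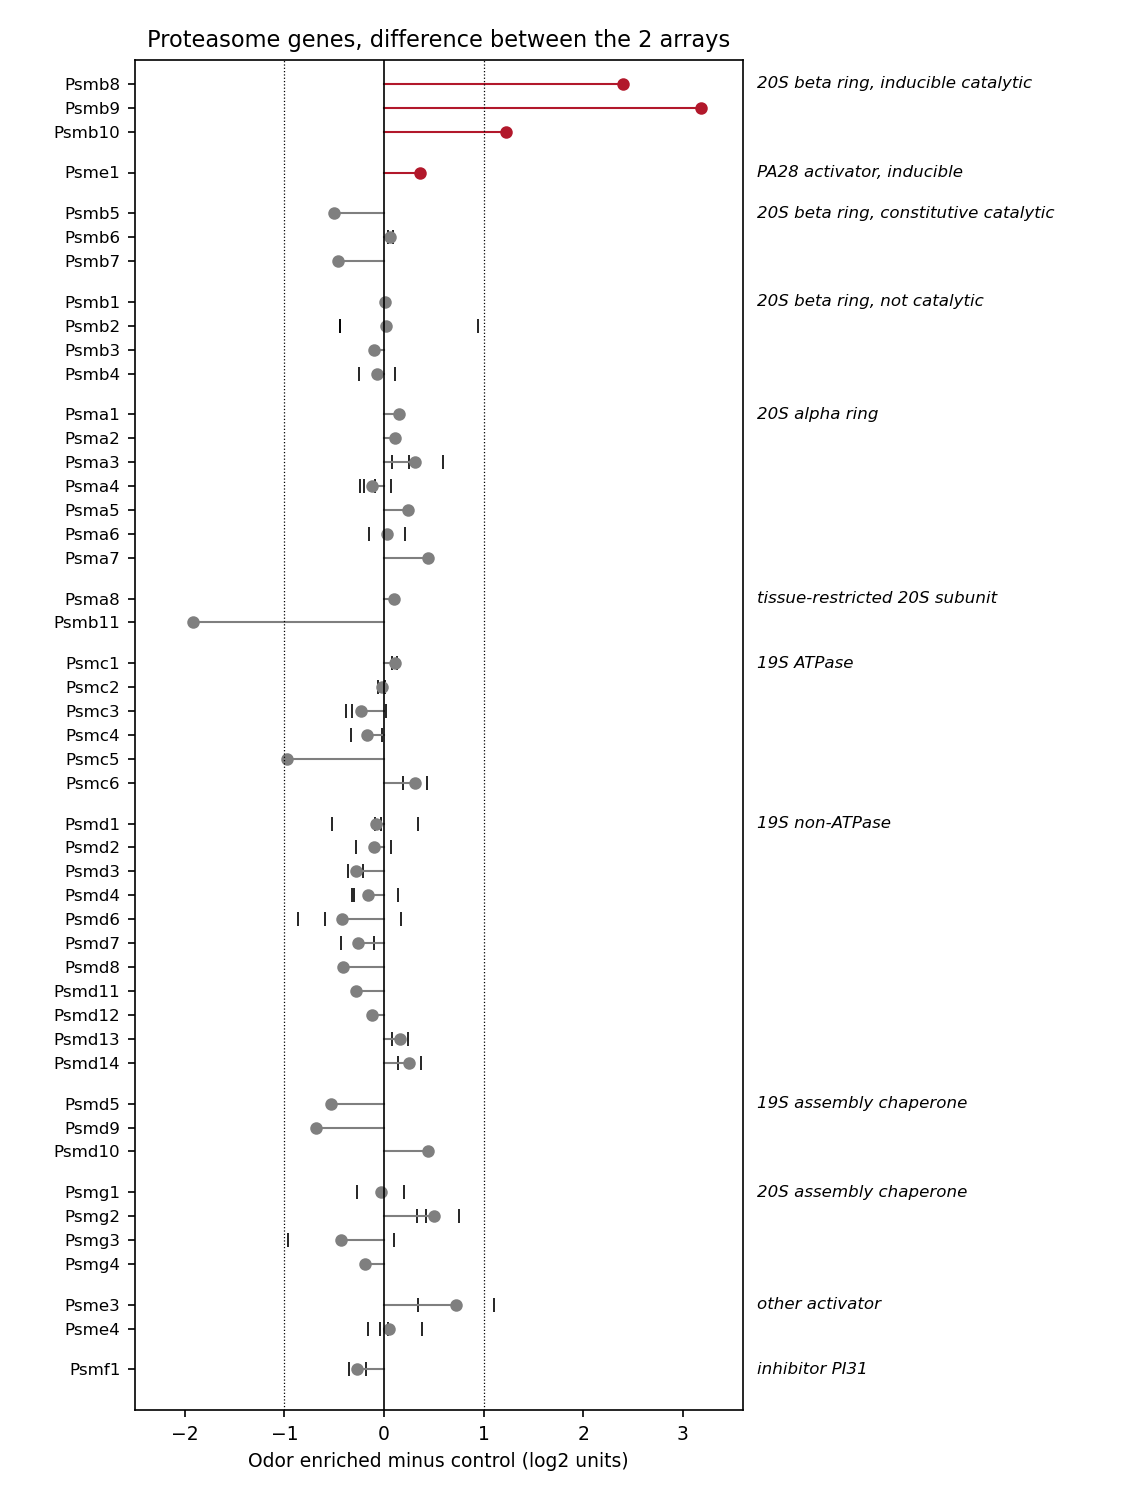
Difference of each proteasome gene between the arrays (odor enriched minus control, log2 units, horizontal axis), grouped by role. Circles are gene means, ticks are single probes of genes with several, dotted lines mark 2-fold, and red marks the inducible group, whose catalytic subunits lie at 1.22 to 3.18 beyond the upper 2-fold line while 42 of the 43 other members (grey) lie within 2-fold. With the arrays centred on E1A each point would move down by 1.76, which takes Psmb10 and Psme1 below 0.

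Psmb8, the replacement for the chymotrypsin-like subunit Psmb5, was measured by 1 probe. Its processed signal was 780 on the control array and 3310 on the odor enriched array. Relative to the rest of each array it went from 1.64 to 4.04, a difference of 2.40 (5.27-fold), and 2.42% of all measured genes differed at least as much upward. Psmb5 itself had a signal of 3288 on the control array and 1870 on the odor enriched array, or 3.72 and 3.21 on the log2 scale, a difference of -0.50. The partners thus differed in opposite directions, and their difference of differences, which does not depend on centring, was 2.90 log2 units (7.46-fold). With normexp background correction it was 2.86.

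The 2 genes encode closely related proteins, so the probes are shown to make visible how far their letters differ. They lie in genome build mm9 at chr17:34337771-34337830 on the plus strand (Psmb8) and chr14:55233161-55233220 on the minus strand (Psmb5). Capitals mark the bases that are identical in the best ungapped overlap of the 2 probes, which was 50 bases long, with 31 bases identical (62.0%) and 19 different.
Psmb8 probe: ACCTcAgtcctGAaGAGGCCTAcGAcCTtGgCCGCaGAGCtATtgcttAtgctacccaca
Psmb5 probe: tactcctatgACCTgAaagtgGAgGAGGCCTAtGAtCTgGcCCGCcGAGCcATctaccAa
The same overlap held 27 of 48 identical bases (56.2%) for the Psmb9 and Psmb6 probes and 23 of 56 (41.1%) for the Psmb10 and Psmb7 probes. Hybridization of one transcript to its partner's probe was not tested. In the reported setting the inducible gene's difference exceeded that of its partner by at least 1.69 log2 units in each of the 3 pairs. Over all settings the lowest excess was 1.62 (Psmb10 and Psmb7).

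Psmb9, the replacement for the caspase-like subunit Psmb6, had the highest difference of the family. Its RefSeq mRNA probe (mm9 chr17:34319174-34319233, minus strand) had a signal of 532 on the control array and 3884 on the odor enriched array. This is 1.09 and 4.27 on the log2 scale, a difference of 3.18 (9.06-fold) that 0.98% of all genes reached. Its second probe, designed on an Ensembl transcript, was not well above background on either array, at signals of 2.93 and 6.50, and was left out. Taking that probe in as well lowered the difference of Psmb9 to 2.32. Psmb6 was measured by 2 probes, which differed by 0.04 and 0.09, so that its mean was 4.60 on the control array and 4.66 on the odor enriched array. The pair differed by 3.11 log2 units (8.66-fold), by 2.94 with normexp background correction and by 2.26, its lowest value over the settings, with no filter on dim probes.

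Psmb10, the replacement for the trypsin-like subunit Psmb7, had a signal of 5896 on the control array and 11077 on the odor enriched array (mm9 chr8:108459677-108459736, minus strand). Its log2 values were 4.56 and 5.78, a difference of 1.22 (2.33-fold) that 8.39% of all genes reached, and it was -0.54 with the arrays centred on E1A. Psmb7 was lower on the odor enriched array, with a signal of 1632 against 952 and log2 values of 2.71 and 2.24, a difference of -0.47. The pair differed by 1.69 log2 units (3.22-fold), the lowest value of the 3 pairs. Psmb8, Psmb9 and Psmb10 were each at least 2-fold higher in 14 of the 14 settings without E1A centring (the reported one included), with ranges of 2.22 to 2.73, 2.32 to 3.51 and 1.05 to 1.55.

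**Figure D2:**
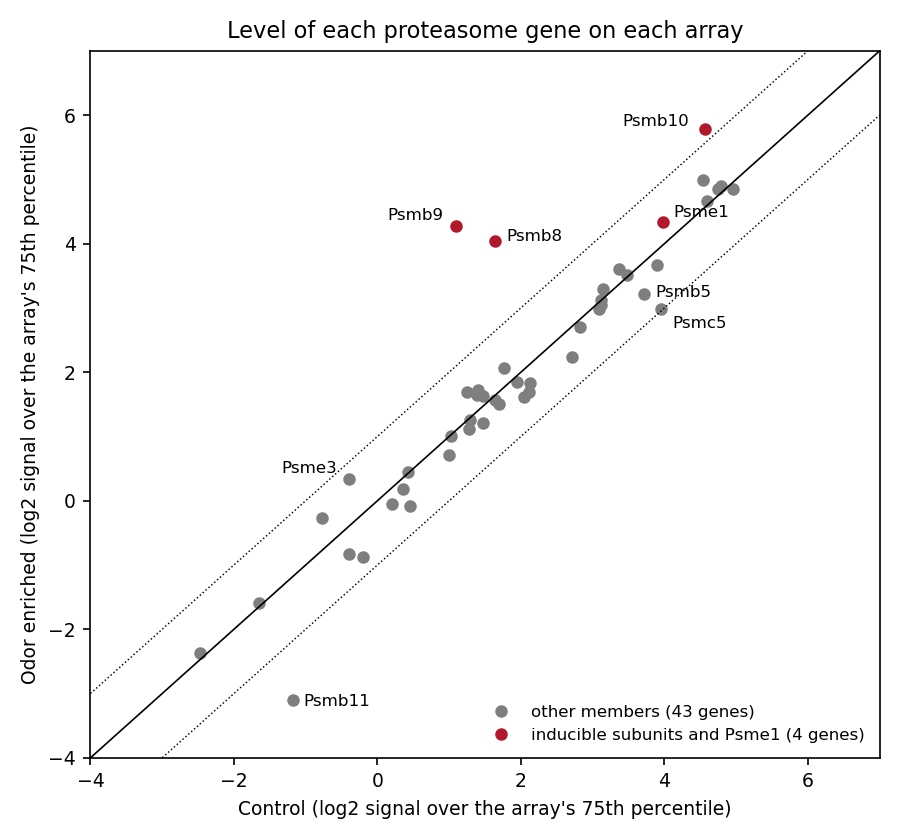
Log2 signal of each proteasome gene relative to the 75th percentile on the control array (horizontal axis) and the odor enriched array (vertical axis). The solid line marks equal values and the dotted lines 2-fold; Psmb8, Psmb9 and Psmb10 (red) lie above the upper dotted line and Psme1 within it, and Psmb11 (grey) lies below the lower one. The heights of different genes come from different probes and have no order.

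The PA28 activator was described by less. Psme1, its alpha subunit, had a signal of 3935 on the control array and 4077 on the odor enriched array, or 3.98 and 4.34 on the log2 scale. The difference of 0.36 was below 2-fold and was reached by 29.5% of all genes, and with the arrays centred on E1A it was -1.40. For Psme2, the beta subunit, the array has only 2 probes named Psme2b, a gene whose probes also list the Psme2 accession, so transcripts of the 2 genes may not be told apart. These probes differed by 0.34 and 0.83, with a mean of 3.69 on the control array and 4.27 on the odor enriched array (difference 0.58). Counting Psme2b as Psme2, a choice made after seeing the data, gave the inducible group a median of 1.22 and the gap to the other members a value of 1.30. The catalytic subunits alone had a median of 2.40 and a gap of 2.47, and Psme1 alone a gap of 0.44.

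The constitutive 20S core differed little. Its 14 subunits had a median difference of 0.02 and ranged from -0.50 (Psmb5) to 0.44 (Psma7). None of them reached 2-fold, where 17.0% of all measured genes did in either direction. Psma7, an alpha subunit, went from 4.54 to 4.98 by 1 probe. In the alpha ring, whose subunits form the gate of the core, the other differences were 0.31 for Psma3, 0.24 for Psma5, 0.16 for Psma1, 0.11 for Psma2, 0.03 for Psma6 and -0.12 for Psma4. These values are smaller than or near the SD of 0.34 between probes of a gene. The noncatalytic beta subunits Psmb1 (0.01), Psmb2 (0.02), Psmb3 (-0.10) and Psmb4 (-0.07) differed by 0.10 or less in the mean of their probes.

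The mean of Psmb2 hid a disagreement between probes. Its 2 probes for the RefSeq mRNA, each of which spans 2844 bases of genome and therefore a splice junction, both differed by -0.45. These 2 probes start at chr4:126361432 and chr4:126361456 and overlap, so their agreement is not that of 2 independent readings. The third probe, for the transcript AK164463, lies at mm9 chr4:126362768-126362827 within the stretch that the other 2 span, and differed by 0.95. This probe went from 0.36 on the control array to 1.31 on the odor enriched array, while the mRNA probes went from 0.26 to -0.18 and from 0.65 to 0.20. Which transcript each probe read in these samples was not tested, and the RefSeq mRNA probes alone put Psmb2 at -0.45.

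The 19S particle had a median difference of -0.16 over 17 subunits, from -0.97 (Psmc5) to 0.31 (Psmc6). None reached 2-fold, where 17.0% of all measured genes did in either direction. Psmc5, an ATPase of the ring that unfolds substrates, had a signal of 3878 on the control array and 1592 on the odor enriched array by 1 probe. Its log2 values were 3.96 and 2.98, the lowest difference of any 19S subunit, and it passed 2-fold in 2 of the 14 settings without E1A centring (range -1.17 to -0.64). The other ATPases differed by 0.31 (Psmc6), 0.11 (Psmc1), -0.02 (Psmc2), -0.18 (Psmc4) and -0.23 (Psmc3).

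The non-ATPase subunits of the 19S particle hold its ubiquitin receptors, its scaffold and its deubiquitinase. Psmd14, the deubiquitinase, differed by 0.26 and Psmd4, a ubiquitin receptor, by -0.16. The scaffold subunits Psmd1 and Psmd2 differed by -0.08 and -0.10. Psmd13 differed by 0.16, Psmd12 by -0.12, Psmd7 by -0.26, Psmd11 and Psmd3 by -0.29 each and Psmd8 by -0.42. Psmd6 had the lowest mean of these subunits, -0.43, but its 3 probes ran from -0.86 to 0.17, so its own probes did not share a sign.

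The alpha ring lay above the 19S particle by 0.32 log2 units in the medians, and by 0.24 to 0.42 over the 14 settings without E1A centring. On which side of 0 the 2 groups lay depended on the scaling. In the reported setting 6 of 7 alpha subunits and 4 of 17 subunits of the 19S particle were above 0, and over those settings the numbers ran from 3 to 7 and from 2 to 14. Among the 25 other members with several measured probes, 12 had all probes on the same side of 0 and 13 had probes on both sides.

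The assembly factors, the remaining activators and the inhibitor also stayed within 2-fold. Of the chaperones that assemble the base of the 19S particle, Psmd9 differed by -0.68, Psmd5 by -0.54 and Psmd10 by 0.44. Of those that assemble the 20S core, Psmg2 differed by 0.50 (probes 0.33 to 0.75), Psmg1 by -0.03, Psmg4 by -0.19 and Psmg3 by -0.43 (probes -0.96 to 0.10). Psmf1, the inhibitor PI31, differed by -0.27, and Psme4, the activator PA200, by 0.06.

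Psme3, the nuclear activator PA28 gamma, which is not counted among the inducible subunits, had the highest difference of the other members, 0.72 (-0.39 on the control array and 0.33 on the odor enriched array). Its RefSeq mRNA probe had a signal of 392 on the control array and 679 on the odor enriched array, a difference of 1.10, and its Ensembl transcript probe 92.8 and 94.9, a difference of 0.34. It passed 2-fold in 4 of the 14 settings without E1A centring and was -1.04 with it. No other member outside the inducible group had a probe at least 2-fold higher among the probes well above background on both arrays.

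The tissue-restricted core subunits were dim. Psmb11, the catalytic subunit known from thymic epithelium, had a signal of 111 on the control array and 23.5 on the odor enriched array, and its log2 values were -1.18 and -3.10. The difference of -1.92 was the lowest of the family, but normexp background correction, which adds an offset and shrinks differences of dim probes, gave -0.80. Psma8, the alpha subunit known from the testis, had a signal of 45.2 on the control array and 39.0 on the odor enriched array and differed by 0.10.

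Psmb8 and Psmb9 lie in the MHC on chromosome 17, interleaved with the peptide transporter genes, and Psmb9 and Tap1 face away from each other across a short shared stretch. Tap1 went from -1.30 to 1.84, a difference of 3.14 (2.41 with normexp), beside 3.18 for Psmb9, and Tap2, on the other side of Psmb8, went from 2.90 to 4.88 (difference 1.98). The shared stretch is shown because both genes start from it. It covers the 225 bases between the RefSeq start sites, at chr17:34187331-34187555 of GRCm38.p6, on the plus strand, along which Tap1 is read.
Psmb9-Tap1 shared stretch: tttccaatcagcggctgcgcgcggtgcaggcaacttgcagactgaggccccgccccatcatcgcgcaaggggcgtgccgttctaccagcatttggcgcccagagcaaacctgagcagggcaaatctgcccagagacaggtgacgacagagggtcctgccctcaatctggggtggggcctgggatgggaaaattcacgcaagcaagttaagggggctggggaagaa

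In all, 3 motifs were searched on both strands in the RefSeq promoter windows of GRCm38.p6, 300 bases each (250 before and 50 after the start). A window was found for 40 of 48 proteasome genes, Psme2 included. The GAS motif, the interferon gamma-activated site (TTCNNNGAA), was in 8.3% of the 32851 windows of all genes and in those of 3 of the 40 genes, Psmb8, Psmd2 and Psmg1. In Psmb8 it began at position -97 from the start, on the sense strand, and capitals mark it in the 250 bases before the start, at chr17:34197945-34198194 of GRCm38.p6.
Psmb8 upstream: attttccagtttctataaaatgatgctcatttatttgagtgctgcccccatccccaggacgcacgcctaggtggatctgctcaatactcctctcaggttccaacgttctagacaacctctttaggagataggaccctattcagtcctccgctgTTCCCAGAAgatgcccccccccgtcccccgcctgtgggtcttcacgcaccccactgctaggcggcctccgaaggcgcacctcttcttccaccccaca
The core of the interferon-stimulated response element, bound by interferon regulatory factors (GAAA, any 2 bases and GAAA again), was in 3.44% of all windows. It was in those of 5 of the 40 genes, Psmb3, Psmd4, Psmd9, Psme1 and Psmg4. The antioxidant response element (TGACNNNGC), bound by Nfe2l1 and related factors, was in 12.4% of all windows. It was in those of 6 of the 40 genes, Psmb5, Psmb6, Psmc6, Psmd12, Psmd9 and Psme4. By group, the GAS was found for 1 of 5 inducible genes, the interferon element for 1 of 5 and the antioxidant element for 0 of 5. Among the other members they were found for 2, 4 and 6 of 35 genes. These counts are of genes, some of which have 2 windows, while the percentages are of windows. None of the 3 motifs was in the stretch shared by Psmb9 and Tap1. A match is a description of these letters only, and motifs may overlap one another.

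The neighbours of the inducible genes on the chromosome differed by locus. Beside Psmb8 and Psmb9 were H2-Ab1 (4.68), H2-DMa (2.47), H2-DMb2 (1.75), H2-Ob (0.49) and H2-DMb1 (0.18), genes of MHC class II presentation. Around Psmb10 the 6 nearest measured genes ran from -2.04 (Nrn1l) to 0.69 (Ctrl), so that none was 2-fold higher, and the adjoining Lcat and Slc12a4 differed by -0.47 and -0.36. Around Psme1 and the position of Psme2 they ran from -0.64 (Dcaf11) to 0.34 (Rec8). Of 20 neighbours in all, 5 were at least 2-fold higher, each in the MHC, where 11.5% of all measured genes were. Of these neighbours 1 was at least 2-fold lower, where 5.52% of all measured genes were.

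Genes that work with the constitutive proteasome differed little. Among all measured genes 17.0% passed 2-fold in either direction. Of 17 measured partners, assembly factors and regulators, none passed 2-fold, and the median was 0.06. The highest were Pomp, the maturation factor of the core, at 0.45 and Adrm1, a ubiquitin receptor, at 0.24, and Ubqln4, a shuttle of ubiquitinated substrates, differed by -0.62. Nfe2l1, the transcription factor known to drive proteasome genes, went from 1.24 to 1.24 and differed by 0.00. Of the 6 genes for ubiquitin and its activating enzymes, none passed 2-fold, the median was -0.09, and they ran from -0.24 (Uba6) to 0.17 (Rps27a).

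Several genes that act on the peptides after the proteasome were higher. Among all measured genes 11.5% were at least 2-fold higher. Of 9 genes of peptide transport and loading, 4 were at least 2-fold higher and none lower, with a median of 0.86. Besides Tap1 and Tap2 these were B2m, the light chain of class I molecules, which went from 2.28 to 4.47 (2.19), and Tapbpl, a peptide editor (1.71). Tapbp differed by 0.86 and the trimming peptidase Erap1 by 0.76, and the general chaperones Calr and Canx by 0.05 and -0.18. Of 11 genes of interferon gamma signalling, 5 were at least 2-fold higher and none lower, with a median of 0.59. Ifng, the ligand, went from -4.10 to 3.91, a difference of 8.00 (5.82 with normexp). Nlrc5, the activator of class I genes, differed by 3.16 (2.04 with normexp), Irf1 by 2.21 and Socs1, the feedback inhibitor, by 1.72. The receptor chain Ifngr1 differed by 0.59, Jak1 by 0.14 and Irf8 by 0.07.

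Among inducible ubiquitin-like modifiers and their enzymes, Ubd, whose product FAT10 directs proteins to the proteasome, was well above background on the odor enriched array only. Measured against the lowest signal well above background on the control array (-5.69 in log2), it was 1244-fold higher. That reference is the dimmest flagged signal of the array, so the value is a rough bound and no measured fold. Of the 5 others, Herc6 was past 2-fold (1.25, but 0.71 with normexp), where 11.5% of all measured genes were at least 2-fold higher. Uba7 differed by 0.85, Isg15 by 0.52, Ube2l6 by 0.33 and Usp18 by 0.23.

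**Figure D3:**
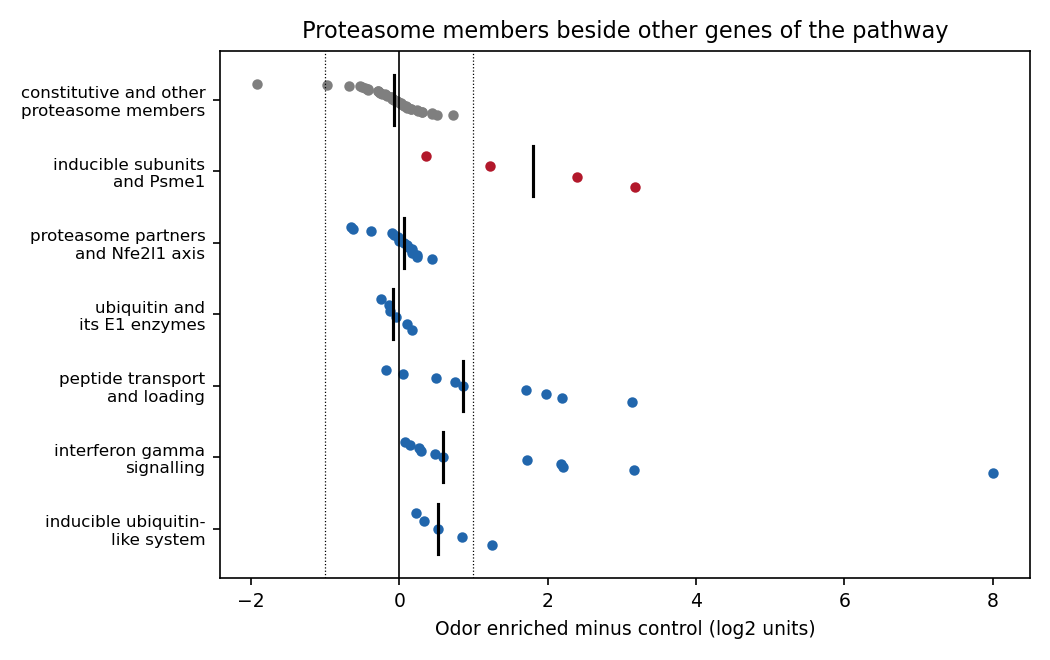
Differences between the arrays (odor enriched minus control, log2 units, horizontal axis) for the proteasome members and 5 lists of genes of the pathway, with 1 point per gene, a black bar at each median and dotted lines at 2-fold. The medians are -0.08 for the other members, 1.81 for the inducible group, 0.06 for the partners, -0.09 for ubiquitin and its activating enzymes, 0.86 for peptide loading, 0.59 for interferon gamma signalling and 0.52 for the ubiquitin-like genes; with the arrays centred on E1A all points would move down by 1.76.

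Markers of several cell types differed between the arrays as well. For comparison, 11.5% of all measured genes passed 2-fold upward and 5.52% downward. The labels call the tissue neurons of the bulb and its source the bulb, with no sorting step, and markers of microglia, endothelium and sensory axons were well above background on both arrays, so the RNA was treated as that of whole tissue. Of 10 T and NK cell markers, 9 were at least 2-fold higher on the odor enriched array, and their summed signal relative to the 75th percentile went from 1.76 to 23.4. Of 8 macrophage and dendritic cell markers 6 were measured and 3 of these were at least 2-fold higher (Cd74 by 3.66), and the sum went from 6.19 to 70.3. Cd74 and Plac8 held 5.74 and 69.1 of these sums, and the 4 others together went from 0.45 to 1.10, with Flt3 at -0.09. Ciita, past 2-fold at 2.25, had 4 probes that ran from -1.21 to 4.20. Clec9a was above background on the odor enriched array only and Xcr1 on neither. Of 6 endothelial markers, 5 were at least 2-fold higher, with sums of 26.3 and 51.8. Cldn5, the brightest and the only 1 below 2-fold, went from 4.54 to 5.25 (0.71) and weighs most in these sums. Pecam1 (1.09) was 0.76 with normexp, while Emcn, Cdh5, Kdr and Tek stayed at 1.36 or more.

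Markers of other cell types differed less or were lower. Here too the array-wide shares past 2-fold were 11.5% upward and 5.52% downward. Of 8 microglial markers 1 was at least 2-fold higher and none lower, the median was -0.19, and the sums were 129 and 136. The higher marker, Aif1, differed by 1.09, or 0.77 with normexp. Of 4 B cell markers 3 were measured, 1 of them at least 2-fold higher, with sums of 1.18 and 2.10. The other, Cd79a, was above background on the control array only, but its log2 value was no lower on the odor enriched array. It was -5.01 on the control array and -4.80 on the odor enriched array, where the lowest signals well above background were -5.69 and -4.66. Of 10 markers of bulb neurons 3 were at least 2-fold lower and 1 higher (Tbx21, which T and NK cells also express). Their median was -0.33 and their sums were 41.1 and 23.9. Doc2g, the brightest of them on the control array, went from 4.46 to 2.63 and weighs most in the fall of the sum. Of the 3 lower ones, Slc17a7 was -0.66 with normexp, while Doc2g (-1.80) and Cdhr1 (-1.13) stayed at least 2-fold lower. Of 5 markers of the sensory axons 4 were at least 2-fold lower, with sums of 292 and 47.6. Omp alone held 287 and 44.7 of these sums, and the sum of the 4 others went from 5.22 to 2.91. The probes of Stoml3 ran from -3.67 to 0.71. With normexp Cnga2 was -0.76, while Omp (-2.69), Nqo1 (-1.46) and Stoml3 (-1.26) stayed at least 2-fold lower. The part of these cell types in the differences of the inducible subunits was not tested. In bulk RNA, more cells of a type and more RNA per cell cannot be told apart.

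The contrast between the groups was recomputed under 14 other ways of processing. The gap between the medians of the 4 inducible members and of the others ran from 1.77 to 1.92 over them. In 4 of the 14, E1A centring included, each array is shifted by a constant, which cannot change the gap, so their value of 1.88 was fixed. Keeping outlier-flagged spots or leaving out bright patches fixed it too, since no member probe was flagged or lay in a patch. No inducible member had more than 1 measured probe. Choosing among measured probes could therefore move only the median of the others, and the range of the gap is a limited check. The medians themselves followed the scaling. The other members ran from -0.25 to 0.26 without E1A centring and reached -1.84 with it, and the inducible members ran from 1.63 to 2.14 and reached 0.05.

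**Figure D4:**
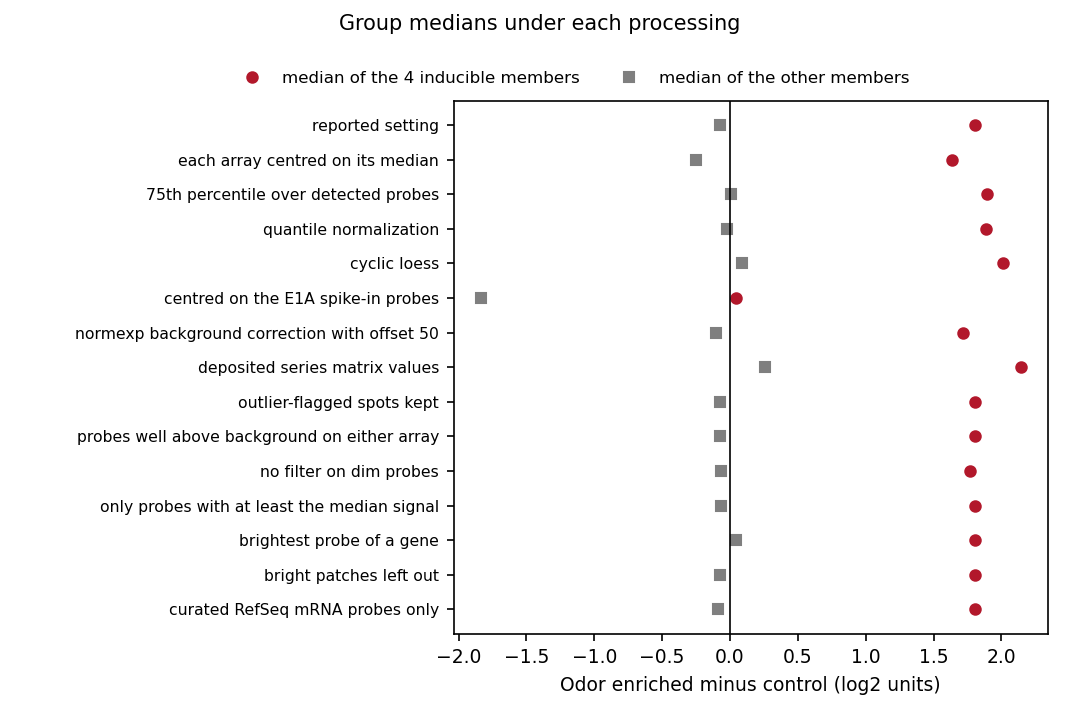
Median difference (odor enriched minus control, log2 units, horizontal axis) of the 4 inducible members (red circles) and of the other members (grey squares) under each of 15 ways of processing. The distance between the markers lies between 1.77 and 1.92 and cannot change in the 4 settings that shift each array by a constant. Nor can it change where outlier-flagged spots are kept or bright patches left out. Centring on the E1A spike-in probes moves both medians down, to 0.05 and -1.84.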

How the data were processed

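Each array measured Cy3-labelled total RNA of 1 olfactory bulb sample. Per the file headers, the scans were read by Agilent Feature Extraction 11.5.1.1. The deposited intensity of a spot is its processed signal after background subtraction, with probe positions on mm9. The deposited series matrix holds log2 values of the same signals, shifted by a constant per array whose origin is not given in the sources used here; its medians are -9.48 (control) and -8.98 (odor enriched), so its centring stays unknown. The authors' deposited flags marked spots well above background and outliers, and 122 outlier spots on the control array and 183 on the odor enriched array were left out.

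Log2 processed signals were averaged over the spots of each probe, the array's 75th percentile over probes was subtracted (7.966 and 7.655), and genes were averaged over probes that passed the background flag in both samples. With 1 array per group, genes were counted past 2-fold and no test was run. The named genes were all genes matching the family's name pattern, the highest and lowest genes of 5 pathway lists with set additions, and the 3 nearest measured neighbours on each side of each inducible gene; some of the listed genes are not reported here. The members, lists, markers and motifs were chosen with earlier results of these data known. Sequences came from the files' probes and from RefSeq windows of GRCm38.p6; the table served for no mm9 coordinate. Alternatives changed the scaling, background correction, filter, probes, threshold and group membership. The gene step was tested on simulated data. The computations used Python 3.11.15, numpy 2.4.6, pandas 2.3.3, matplotlib 3.10.9, limma 3.58.1 and R 4.3.3.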

Additional observations from a re-analysis of the deposited data

How the results depend on the processing

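No paired analysis was possible because each group has 1 array and the labels pair no samples, and for the same reason no replicate could be left out. Of 656 recomputed differences of single members, 595 moved by less than the spread between probes, 60 moved by more (46 of them with the arrays centred on E1A), and 1 that had passed 2-fold changed sign, that of Psmb10, which was -0.54 with E1A centring. Smaller differences changed sign too: of the 22 members above 0, 20 were below 0 with E1A centring, Psmb10, Psme1 (-1.40) and Psme3 (-1.04) among them. E1A centring also gave medians of 0.0472 for the inducible and -1.84 for the other members, put 1 inducible member 2-fold higher and 1 lower, and put 43 other members 2-fold lower; the 8 E1A probes well above background differed by 1.53 to 4.73. The number of other members at least 2-fold lower was 2 with median centring, 0 with only probes of at least the median signal (which leaves out Psmb11) and 3 at 1.5-fold. The number at least 2-fold higher was 1 with the series matrix values, with only probes of at least the median signal, with the brightest probe, with the curated RefSeq mRNA probes (chosen after seeing the data) and at 1.5-fold. By construction, the catalytic subunits alone had a median of 2.40 and a gap of 2.47, Psme1 alone 0.36 and 0.44, and the group with Psme2b taken as Psme2 (chosen after seeing the data) 1.22 and 1.30. No member was above background on 1 array only. Each inducible member rests on 1 measured probe and 1 mouse per condition, so neither the spread between mice nor that between probes is known for them. Dim members such as Psmb11 are limited by signal over background.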
